A study of Mus musculus with 7 samples.

Results

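The 9 genes described here are the STAT transcription factor genes Stat2, Stat3, Stat4, Stat5a, Stat5b and Stat6 and the feedback inhibitor genes Socs1, Socs3 and Cish, taken by symbol from the 57010 genes of the deposited count table. They were measured by bulk RNA sequencing of mature white adipocytes, the fat-storing cells, freed by collagenase from the perigonadal fat of male mice on normal chow, collected at 20 weeks of age. The controls were 3 samples of FFA2 fl/fl mice, in which the gene of Free Fatty Acid Receptor 2 is flanked by loxP sites, and the other group was 4 samples of Adipoq-F2-KO littermates, which come from crossing the floxed line with Adiponectin-Cre mice. The adiponectin promoter drives Cre in adipocytes, so the groups differ in the transgene as well as in the receptor gene. The labels do not say whether a sample came from 1 mouse or from a pool.

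STAT proteins wait in the cytoplasm until a cytokine or hormone receptor brings Janus kinases (JAKs) together. The kinases phosphorylate the STAT, which pairs with another STAT, enters the nucleus and binds DNA. SOCS proteins and CIS, the product of Cish, are induced by this signal and then restrain the receptor or the kinase that started it. In fat cells, leptin, growth hormone, interferons and the interleukin-6 family all signal this way, and STAT5 takes part in adipocyte differentiation. Messenger RNA levels, as measured here, do not show how much of a STAT protein is phosphorylated.

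The libraries held between 30478997 and 39992605 assigned counts. Ffar2, the targeted gene, averaged 34.5 ± 2.77 CPM (counts scaled to library size with TMM factors, SD, n = 3) in the controls and 1.69 ± 0.634 (SD, n = 4) in Adipoq-F2-KO, a log2 fold change of -4.36 with an edgeR adjusted p of 7.97e-06. The adipocyte markers were abundant in every library, with 10 markers summing to 34486 to 50014 CPM. Markers of other cells were present as well. The summed CPM of 16 macrophage markers was 377 to 463 in the controls and 580 to 672 in Adipoq-F2-KO, none of the 16 was at 0, and Lyz2 and Cd68 were called higher. The sum of 10 endothelial markers was 1077 to 1421 and 1494 to 2356 CPM, while the adipocyte sum was 44463 to 50014 in the controls and 34486 to 45429 in Adipoq-F2-KO. The share of counts from the mitochondrial chromosome was 4.41% to 5.77% in the controls and 6.61% to 10.3% in Adipoq-F2-KO. Adipoq-F2-KO library 4 had the highest macrophage and endothelial sums, the highest mitochondrial share and the lowest adipocyte sum. In bulk RNA, a change in the number of cells of a type cannot be told apart from a change in RNA per cell.

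Promoter sequence is shown for 3 of the genes because Stat3 and Cish had the smallest p-values among the 9 genes and Socs3 was the most abundant. They are the bases just before the transcription start in RefSeq (GRCm38.p6), written 5′ to 3′ on the strand of the gene, with capitals marking TTCNNNGAA, the spaced palindrome that STAT dimers bind. Stat3 is at chr11:100939541-100939790 on the minus strand, Cish at chr9:107296409-107296658 on the plus strand and Socs3 at chr11:117969367-117969616 on the minus strand.
Stat3: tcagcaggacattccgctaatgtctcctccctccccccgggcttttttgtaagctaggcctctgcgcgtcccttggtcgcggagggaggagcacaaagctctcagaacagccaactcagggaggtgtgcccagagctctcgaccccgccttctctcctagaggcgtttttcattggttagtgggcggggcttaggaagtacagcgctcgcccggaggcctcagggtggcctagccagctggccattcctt
Cish: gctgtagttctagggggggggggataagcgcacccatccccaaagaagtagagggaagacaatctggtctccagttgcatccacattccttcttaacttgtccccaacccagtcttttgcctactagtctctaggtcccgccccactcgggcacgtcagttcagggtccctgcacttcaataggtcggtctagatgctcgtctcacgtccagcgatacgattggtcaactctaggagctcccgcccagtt
Socs3: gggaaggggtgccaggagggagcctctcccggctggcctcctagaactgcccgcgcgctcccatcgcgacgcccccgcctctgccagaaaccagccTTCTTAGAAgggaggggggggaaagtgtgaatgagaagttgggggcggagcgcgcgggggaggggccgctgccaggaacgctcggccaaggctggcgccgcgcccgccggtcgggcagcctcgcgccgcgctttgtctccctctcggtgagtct
The start of Cish itself holds a pair of matches, at chr9:107296659-107296678 on the plus strand.
Cish start: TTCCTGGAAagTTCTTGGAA

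A window from 250 bases before to 50 bases after the start was searched for all 9 genes, 12 promoters in all. TTCNNNGAA, which reads the same on both strands, was found in 2 of these promoters. Cish had TTCCTGGAA at base 1 and TTCTTGGAA at base 12 of the transcript, and Socs3 had TTCTTAGAA starting 154 bases before the start. The same palindrome with a gap wider by 1 base, the form that STAT6 binds, was found in the Stat2 promoter alone, as TTCCCTAGAA starting 210 bases before the start. Among all promoters of this length, 8.3% held TTCNNNGAA and 6.95% held the wider form. No match of either kind lay in the windows of Stat3, Stat4, Stat5a, Stat5b, Stat6 and Socs1. A match describes the letters of the window and does not show that a factor was bound there.

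Per length of exon, the feedback gene Socs3 was the most abundant of the 9 in both groups. Socs3, whose product blocks JAK kinases at gp130 and leptin receptors, averaged 186 ± 43.9 RPKM (CPM per kilobase of exon, SD, n = 3) in the controls and 198 ± 40.5 (SD, n = 4) in Adipoq-F2-KO. Stat3, the main STAT of interleukin-6 family cytokines and leptin, followed with 33.5 ± 1.83 and 44.0 ± 5.52 RPKM. Stat6, the factor of interleukin-4 and interleukin-13, came after Stat3 with 28.5 ± 1.08 and 26.4 ± 2.71 RPKM. Every control library had more Stat3 than any control library had Stat6, and the same held in Adipoq-F2-KO. The growth hormone and prolactin factors came next, Stat5b at 12.2 ± 0.436 and 12.0 ± 0.535 RPKM and Stat5a at 9.56 ± 0.241 and 10.4 ± 1.14 RPKM, with libraries that overlapped in Adipoq-F2-KO and not in the controls.

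The lower end of the order was less settled. Socs1, an inhibitor of interferon signaling, was at 8.70 ± 1.70 and 9.71 ± 1.90 RPKM, Stat2, the partner of type I interferon signaling, at 6.12 ± 0.584 and 7.49 ± 1.89, and Cish at 5.95 ± 1.11 and 8.83 ± 1.63. Stat2 and Cish overlapped in both groups, and their order by mean was Stat2 above Cish in the controls and Cish above Stat2 in Adipoq-F2-KO. Stat5a and Socs1 also overlapped in both groups, and Socs1 and Stat2 in Adipoq-F2-KO. Stat4, the factor of interleukin-12 in lymphocytes, was at 0.07 RPKM in the controls. RPKM here counts both mates of a read pair and depends on the exon length in the table, 2891 bases for Socs3 and 6419 for Cish.

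**Figure D1:**
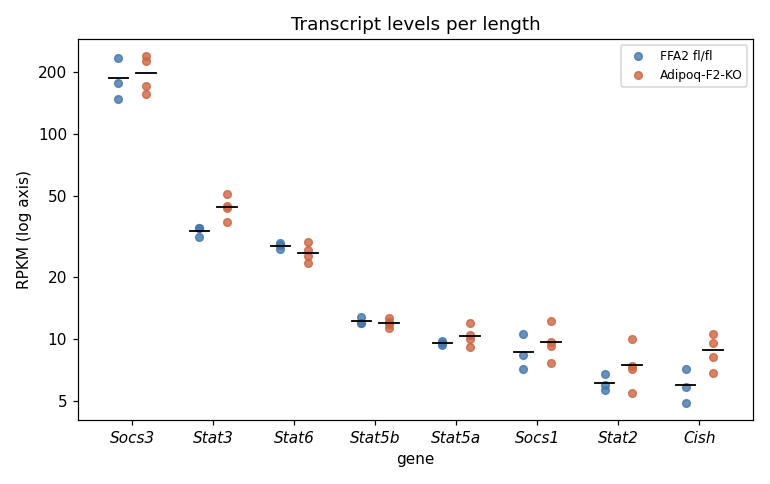
RPKM (log axis) of 8 genes in each library, with blue points for the 3 FFA2 fl/fl libraries, orange points for the 4 Adipoq-F2-KO libraries and a bar at each group mean. Socs3 stands above the rest in both groups, Stat3 and Cish sit higher in Adipoq-F2-KO, and Stat4, at 0.07 RPKM in the controls, is left out.

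The comparison of Adipoq-F2-KO with FFA2 fl/fl asks whether losing the receptor in adipocytes goes with a different supply of STAT factors and of their inhibitors. None of the 8 genes that passed the filter on low counts was called by edgeR at an adjusted p under 0.05, against 1.02% of the 17039 genes tested, 0.798% higher and 0.217% lower. At an unadjusted p under 0.05 there were 2, Stat3 and Cish, both with higher values in Adipoq-F2-KO, where 17.9% of all tested genes passed in either direction, 10.5% higher and 7.37% lower. limma voom also called 0 of the 8, against 1.22% of the genes. DESeq2, the tool of the study, called both of these genes higher and no other, where it called 6.75% of the genes it tested, 5.03% higher and 1.72% lower. The p-values measure the spread between these 7 samples, which may be partly technical.

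Stat3 was at 299, 330 and 330 CPM in the controls and at 356, 424, 415 and 484 CPM in Adipoq-F2-KO libraries 1 to 4. All 4 Adipoq-F2-KO libraries were above every control, and 17.6% of tested genes had groups that did not overlap, 8.86% with Adipoq-F2-KO higher and 8.72% with it lower. The log2 fold change was 0.39 (SE 0.11, 95% interval 0.15 to 0.63), 1.31-fold, with an edgeR unadjusted p of 0.00415 and an adjusted p of 0.107. DESeq2 gave an adjusted p of 0.0143, so the call depends on the tool. Across 14 other settings the adjusted p ran from 0.0123 to 0.365 and the log2 fold change from 0.31 to 0.46. Library 4, highest in Stat3, was also highest in the macrophage and endothelial sums, and without it the log2 fold change was 0.32. The part of those cells in the Stat3 difference was not tested.

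Cish was at 31.5, 45.7 and 37.4 CPM in the controls and at 44.1, 68.1, 61.8 and 52.6 CPM in Adipoq-F2-KO. The groups overlapped by 1 library, since Adipoq-F2-KO library 1 lay just under control 2. The log2 fold change was 0.57 (SE 0.16, 95% interval 0.21 to 0.92), 1.48-fold, with an edgeR unadjusted p of 0.00467 and an adjusted p of 0.111. DESeq2 gave 0.0207, and the adjusted p ran from 0.000672 to 0.383 over 14 other settings. Cish is a textbook target of STAT5 and its product restrains STAT5 at the growth hormone and other receptors. The highest Cish values were in Adipoq-F2-KO libraries 2 and 3. With 1 library left out, the log2 fold change ran from 0.45 without control library 1 to 0.72 without control library 2. It was 0.47 without Adipoq-F2-KO library 2 and 0.60 without library 4. Libraries 2 and 3 also had the highest summed epididymal and germ cell markers, 110 and 26.8 CPM. The part of such cells, or of the macrophages described above, in the Cish difference was not tested.

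Socs3 was at 428, 677 and 510 CPM in the controls and at 495, 651, 690 and 449 CPM in Adipoq-F2-KO. The groups lay over each other, and the spread within each was wider than the difference between them. The log2 fold change was 0.09 (SE 0.18, 95% interval -0.30 to 0.48) with an edgeR adjusted p of 0.842. Socs1 was at 20.9, 30.6 and 24.4 CPM and at 22.3, 28.2, 35.6 and 26.8 CPM. It overlapped likewise, with a log2 fold change of 0.16 (SE 0.17, 95% interval -0.22 to 0.53) and an adjusted p of 0.673. Its log2 fold change was 0.026 without Adipoq-F2-KO library 3 and 0.035 without control library 1, against 0.32 without control library 2 and 0.26 without Adipoq-F2-KO library 1. That of Socs3 ran from -0.056 without control library 1 to 0.285 without control library 2. For both genes the lowest control was library 1 and the highest control was library 2, and Cish had this same order among the controls. The summed CPM of 16 tissue dissociation markers was 14553, 16584 and 13150 in the controls. It was 13715, 15442, 15516 and 14366 in Adipoq-F2-KO. Control library 2 was the highest control here too, but the lowest was library 3. The part of the collagenase step in the level of Socs3, or in this order, was not tested.

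Stat2 was at 40.1, 35.4 and 33.3 CPM in the controls and at 32.3, 43.7, 42.3 and 59.4 CPM in Adipoq-F2-KO. Library 4 stood highest and library 1 was below every control. The log2 fold change was 0.29 (SE 0.17, 95% interval -0.09 to 0.67, adjusted p = 0.404 by edgeR) and was 0.12 without library 4.

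Stat5a and Stat5b encode near-identical proteins and lie side by side, with 8626 bases between them in the table. Reads that fit both genes could make their separate counts uncertain, which was not tested. Stat5a was at 66.5, 69.9 and 68.2 CPM and at 65.6, 71.1, 74.7 and 85.0 CPM, a log2 fold change of 0.12 (SE 0.10, 95% interval -0.10 to 0.34, adjusted p = 0.571 by edgeR). Stat5b was at 66.4, 70.6 and 66.4 CPM and at 70.2, 63.0, 65.8 and 67.0 CPM, a log2 fold change of -0.03 (SE 0.08, 95% interval -0.21 to 0.16, adjusted p = 0.897). The Stat5b groups overlapped, with 2 of the 4 Adipoq-F2-KO libraries below every control, and its interval was the narrowest of the 8 genes. Stat6 was at 130, 126 and 120 CPM and at 131, 112, 120 and 103 CPM. Both Stat6 groups overlapped, and the log2 fold change was -0.11 (SE 0.10, 95% interval -0.32 to 0.10, adjusted p = 0.59). With Adipoq-F2-KO library 4 left out, the log2 fold change was 0.047 for Stat5a and -0.056 for Stat6, and with library 1 left out it was -0.17 for Stat6.

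Stat4 had 2, 28 and 2 counts in the controls and 4, 52, 4 and 0 counts in Adipoq-F2-KO, too few to be tested. The higher counts came from 1 library of each genotype. Control library 2, with 28 counts, also had the highest summed T and NK cell markers, 8.80 CPM. Adipoq-F2-KO library 2, with 52 counts, had the highest summed epididymal and germ cell markers, 110 CPM. Whether the Stat4 counts came from such cells was not tested. A count of 0 in Adipoq-F2-KO library 4 allows up to 0.204 CPM, taking 6 counts, or 3 read pairs, as the limit, which covers counting error only.

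**Figure D2:**
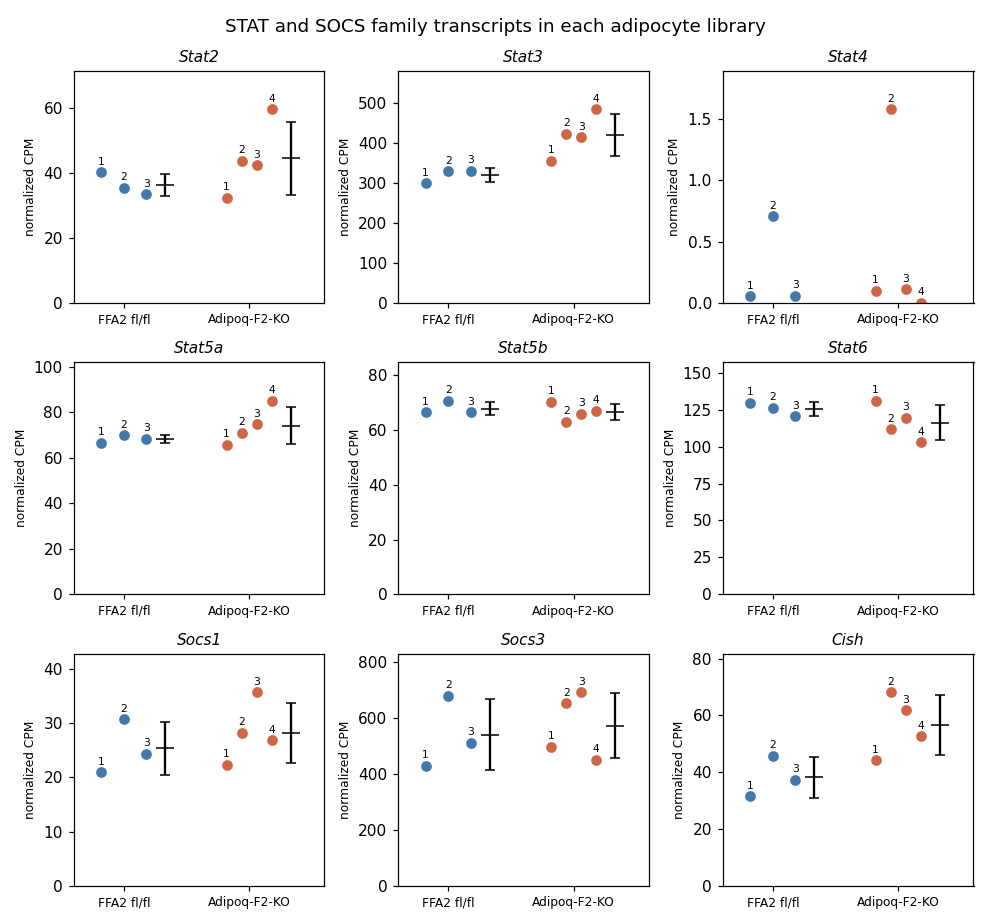
Normalized CPM of each gene (vertical axes start at 0) in the 3 FFA2 fl/fl libraries (blue) and the 4 Adipoq-F2-KO libraries (orange), with library numbers above the points and the group mean and SD at the right of each group, left out for Stat4. All 4 Adipoq-F2-KO points of Stat3 lie above its controls, while the groups overlap for the other 8 genes.

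**Figure D3:**
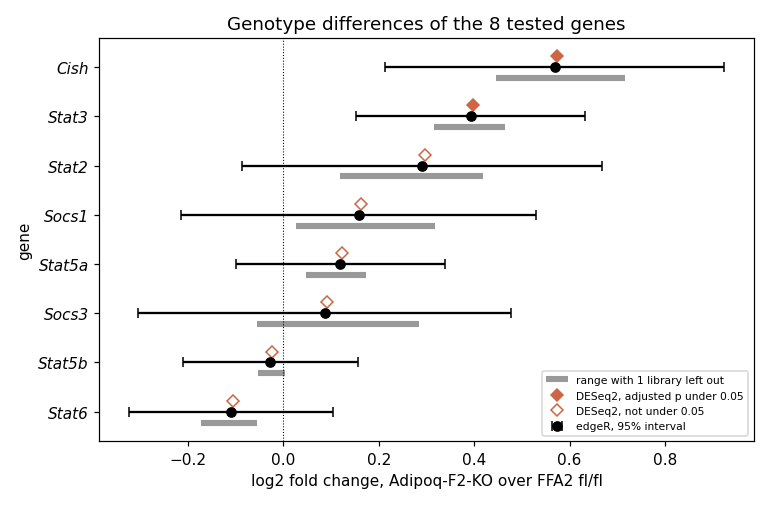
Log2 fold change of Adipoq-F2-KO over FFA2 fl/fl for the 8 tested genes, with black points and bars for edgeR and its 95% interval, grey bands for the range when 1 library is left out, and diamonds for DESeq2, filled where its adjusted p is under 0.05. The intervals of Cish and Stat3 stay above 0, those of the other 6 genes include it, and the grey bands of Socs3 and Stat5b cross 0.

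Summed per length, the 6 STAT genes gave 89.0, 92.0 and 89.2 RPKM in the controls and 94.4, 99.0, 100.2 and 108 RPKM in Adipoq-F2-KO. The groups did not overlap, and the means were 90.1 ± 1.66 (SD, n = 3) and 100.4 ± 5.74 (SD, n = 4), a difference of 10.4 RPKM (exact two-sided permutation test, p = 0.0571, where 0.0286 is the smallest p that 3 against 4 allows). Stat3 alone averaged 33.5 RPKM in the controls and 44.0 RPKM in Adipoq-F2-KO, a rise of like size. The sum is thus not a result apart from that of Stat3. Stat3 made up 37.2% ± 1.79 of the sum in the controls and 43.7% ± 3.14 in Adipoq-F2-KO. A larger share of Stat3 lowers the shares of the other genes. The share of Stat6 was 31.7% ± 1.30 and 26.5% ± 4.09, and that of Stat5b was 13.6% ± 0.233 and 12.0% ± 0.994. Over the 6 shares tested, the exact permutation p was 0.0571 for Stat3 and for Stat5b, and 0.171 for each after Benjamini-Hochberg adjustment.

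**Figure D4:**
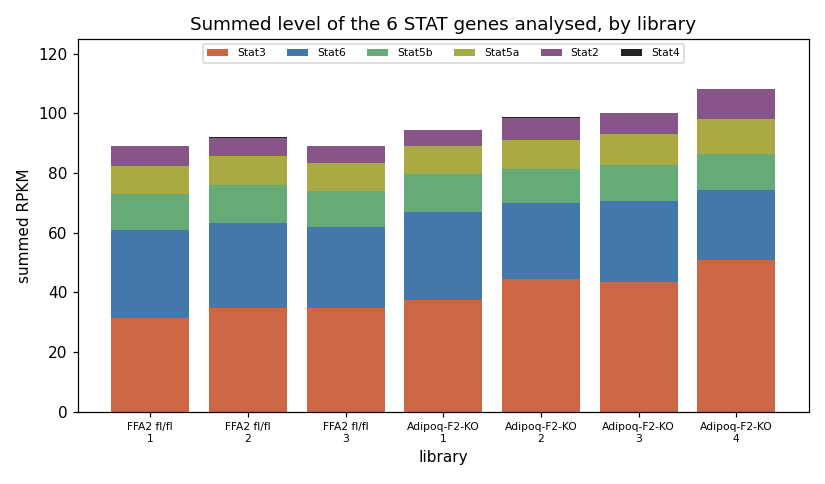
Summed RPKM of the 6 STAT genes in each library, stacked by gene. The sum runs from 89.0 to 92.0 in FFA2 fl/fl and from 94.4 to 108 in Adipoq-F2-KO, and the Stat3 segment is the largest in all 7 libraries.

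The feedback genes were also set against the factors that induce them. The ratio of Socs3 to Stat3 RPKM was 4.71, 6.76 and 5.10 in the controls and 4.59, 5.07, 5.48 and 3.06 in Adipoq-F2-KO. These overlapped, with a difference of -0.30 in the mean log2 ratio (exact two-sided permutation test, p = 0.4). The difference was -0.12 without Adipoq-F2-KO library 4 and -0.14 without control library 2. The ratio of Cish to the sum of Stat5a and Stat5b was 0.230, 0.316 and 0.270 in the controls and 0.314, 0.497, 0.430 and 0.342 in Adipoq-F2-KO. Here 3 of the 4 Adipoq-F2-KO libraries lay above every control, with a difference of 0.53 in the mean log2 ratio (exact two-sided permutation test, p = 0.0857).

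Upstream of the STATs, none of the 4 Janus kinase genes was called by edgeR. DESeq2 called 2 of them higher, against 5.03% of all genes it tested. Jak2, the kinase of the leptin, growth hormone and interferon-gamma receptors, was at 52.7, 56.8 and 55.5 CPM in the controls and at 75.4, 94.3, 90.1 and 172 CPM in Adipoq-F2-KO. The Jak2 groups did not overlap, as for 8.86% of all tested genes with Adipoq-F2-KO higher, and library 4 stood far above the others. Its log2 fold change was 0.97 (SE 0.23) with an edgeR adjusted p of 0.0696. Jak1, which pairs with gp130 and with interferon and interleukin receptors, averaged 228 and 290 CPM, a log2 fold change of 0.35 with an edgeR adjusted p of 0.141. Jak3 and Tyk2 had log2 fold changes of 0.03 and -0.12.

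Of the ligands and receptors of the gp130 and leptin group, 14 of 16 were tested and 2 were called higher and 0 lower by edgeR, against 0.798% of all genes called higher. Il6, the cytokine that signals to STAT3 through gp130, was at 18.9, 31.0 and 22.8 CPM in the controls and at 41.8, 63.2, 80.5 and 83.3 CPM in Adipoq-F2-KO. It rose by a log2 fold change of 1.47 (SE 0.23) with an edgeR adjusted p of 0.0332. Osmr, a chain of the oncostatin M receptor, rose from a mean of 71.4 to 135 CPM, a log2 fold change of 0.92 with an edgeR adjusted p of 0.0396. Neither gene had overlapping groups, as for 8.86% of all tested genes with Adipoq-F2-KO higher. The count of 2 called genes fell to 0 without control library 1, without control library 3, without Adipoq-F2-KO library 2 and without library 3, to 1 without control library 2, and was 2 without Adipoq-F2-KO library 1 or 4. DESeq2 called 3 genes of the list higher and 1 lower, against 5.03% and 1.72% of all genes it tested. It added Clcf1, a gp130 cytokine gene (means 1.91 and 7.29 CPM, log2 fold change 1.92, adjusted p = 0.0599 by edgeR and 0.000347 by DESeq2), and Il6ra. Il6ra, the chain that binds interleukin-6, was at 51.2, 44.5 and 51.0 CPM in the controls and at 35.1, 34.96, 43.1 and 38.1 CPM in Adipoq-F2-KO. All 4 Adipoq-F2-KO libraries lay below every control, which held for 8.72% of all tested genes. The log2 fold change was -0.37 (SE 0.11), with an adjusted p of 0.113 by edgeR and 0.0436 by DESeq2. The shared receptor chain Il6st, which encodes gp130, had a log2 fold change of 0.25 (edgeR adjusted p = 0.331) and leptin, the most abundant gene of the list per length, -0.28 (edgeR adjusted p = 0.473).

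Among 20 genes known as STAT3 targets or acute-phase genes, 15 had log2 fold changes above 0 and 5 below. The 5 below were Lbp (-0.23), Fos (-0.09), Vegfa (-0.07), Junb (-0.06) and Cebpd (-0.03). The median of the 20 was 0.65, where the median of all tested genes was 0.00. This list, like all the others here, was chosen with earlier results of these data known. Its median and its count of calls are therefore not independent evidence of STAT3 activity. In the edgeR test 6 were called higher and 0 lower, against 0.798% and 0.217% of all tested genes. The 6 called genes were the chemokine gene Ccl2 (log2 fold change 1.14, adjusted p = 0.0178), the iron-carrier-binding protein gene Lcn2 (1.26, adjusted p = 0.0332), the hypoxia factor gene Hif1a (0.68, adjusted p = 0.0411), the NF-kB cofactor gene Bcl3 (0.87, adjusted p = 0.0446), the adhesion molecule gene Icam1 (1.16, adjusted p = 0.0464) and the acute-phase gene Saa3 (0.64, adjusted p = 0.04995, just under the threshold). The count was 0 without control library 1 or control library 3, 2 without control library 2, 1 without Adipoq-F2-KO library 2 or 3, 5 without library 1 and 3 without library 4, while the median stayed between 0.49 and 0.69. Ccl2 was called in 5 of these 7 fits, with log2 fold changes from 1.08 to 1.25. Hp, the haptoglobin gene and the most abundant of the list per length, had a log2 fold change of 0.02. Socs3, itself a STAT3 target, had 0.09 as given above. The macrophage sums, which moved with these genes, are given above and their part in the counts was not tested.

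Of 9 STAT5 target genes other than Cish, edgeR called none and DESeq2 called Pim1 higher. This kinase gene had a log2 fold change of 0.75 with an adjusted p of 0.0542 by edgeR and 0.000729 by DESeq2, and Igf1, the most abundant per length, had 0.26 with an edgeR adjusted p of 0.276. Of the 9, 7 had log2 fold changes above 0 and 2 below. The 2 were Pdk4 (-0.63, adjusted p = 0.179 by edgeR and 0.0596 by DESeq2) and Bcl2l1 (-0.26, edgeR adjusted p = 0.284). Of 18 receptors and ligands that feed STAT5, 16 were tested, and edgeR called none. DESeq2 called 5 higher and 0 lower, against 5.03% and 1.72% of all genes it tested. Among these 5 were the cytokine receptor chain genes Csf2rb2 (log2 fold change 0.99, adjusted p = 0.0614 by edgeR and 0.000849 by DESeq2) and Il15ra (0.46, adjusted p = 0.09 by edgeR and 0.0153 by DESeq2). The others were Csf2rb, Il2rg and Il7r (adjusted p = 0.131, 0.134 and 0.159 by edgeR and 0.0202, 0.0371 and 0.0465 by DESeq2). Il7r is also in the list of T and NK cell markers. The part of macrophages and other immune cells in these 5 values was not tested. The growth hormone receptor gene Ghr averaged 1186 CPM in the controls and 1191 CPM in Adipoq-F2-KO, a log2 fold change of 0.01 with an edgeR adjusted p of 0.982. All 10 tested genes of the interleukin-4 and interleukin-13 axis, the inputs and targets of STAT6, had log2 fold changes above 0, with a median of 0.67. edgeR called none of them and DESeq2 called 3 higher, Il4ra, Retnla and Mrc1, against 5.03% of all genes it tested. Retnla, the most abundant per length, had 0.68 (edgeR adjusted p = 0.0556) and the receptor chain gene Il4ra 0.69 (edgeR adjusted p = 0.0554). Il4ra and Pim1 are also among the 20 STAT3 targets, and Mrc1, with 0.66 (edgeR adjusted p = 0.0662), is also a macrophage marker. All 16 macrophage markers also had log2 fold changes above 0, with a median of 0.65, and their part in the values of this list was not tested.

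On the interferon side edgeR called no gene and DESeq2 called 2 higher, against 5.03% of all genes it tested. Of 10 tested receptors and mediators edgeR called 0, with a median log2 fold change of 0.23, and DESeq2 called Irf8, a factor of myeloid cells (log2 fold change 0.66, adjusted p = 0.13 by edgeR and 0.0248 by DESeq2). Irf1, the most abundant per length, averaged 421 and 479 CPM (edgeR adjusted p = 0.682). Irf9, which joins Stat2 in the complex that reads type I interferon signals, had a log2 fold change of 0.49 with an edgeR adjusted p of 0.178. Of 24 interferon-stimulated genes 13 had values above and 11 below the controls, edgeR called 0, and the median was 0.08. DESeq2 called Cxcl10, a chemokine gene and the most abundant per length, with a log2 fold change of 0.64 and an adjusted p of 0.156 by edgeR and 0.0274 by DESeq2. In the interleukin-12 and interleukin-23 axis, the inputs of Stat4, 3 of 7 genes were tested and neither edgeR nor DESeq2 called any, and Il23a was the most abundant per length at 6.54 and 5.31 CPM.

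Of 12 further negative regulators edgeR called 0 and DESeq2 called 1, Ptpn2, higher, against 5.03% of all genes it tested. Ptpn11, the most abundant per length, had a log2 fold change of -0.23 (edgeR adjusted p = 0.199), and Ptpn2, a phosphatase of JAKs and STATs, averaged 19.6 CPM in the controls and 30.6 CPM in Adipoq-F2-KO (log2 fold change 0.64, adjusted p = 0.0577 by edgeR and 0.00281 by DESeq2). Of 6 other SOCS and STAT genes edgeR and DESeq2 called 0, with Socs7 the most abundant per length at 28.0 and 31.6 CPM.

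**Figure D5:**
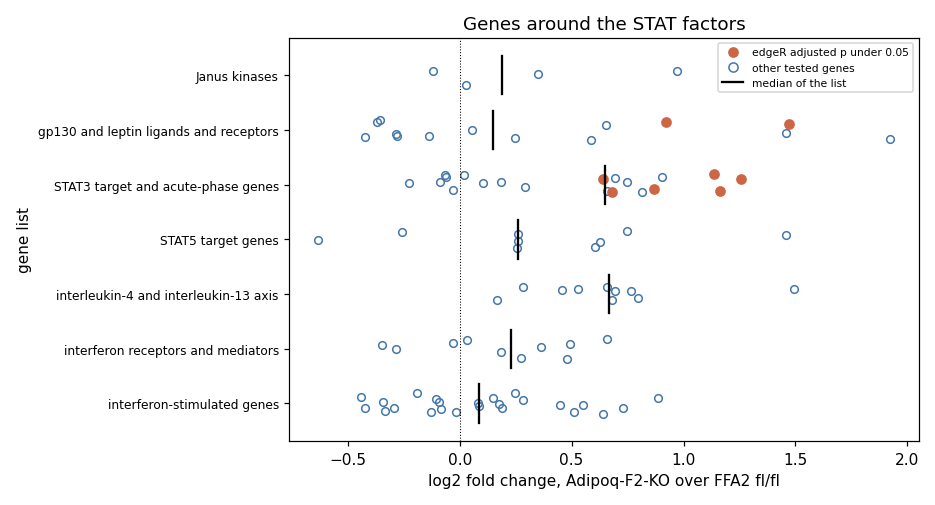
Log2 fold change of Adipoq-F2-KO over FFA2 fl/fl for the tested genes of 7 lists around the STAT factors, with filled points for an edgeR adjusted p under 0.05 and a black line at each median. The filled points are the 2 genes of the gp130 and leptin list and the 6 of the STAT3 target list, and the interferon-stimulated genes lie on both sides of 0 with a median of 0.08.

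The genes whose profile over the 7 libraries was most like that of Stat3, by the mean absolute difference of centred log2 CPM, were Zfp281 (0.026), Atf4 (0.036) and Oser1 (0.037). For Cish they were Fgd1 (0.037), Map3k8 (0.084) and Ggct (0.085). Atf4 averaged 289 CPM in the controls and 360 CPM in Adipoq-F2-KO, and Map3k8 averaged 33.7 and 52.7 CPM.

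In the coordinates of the deposited table, Stat3 lies on chromosome 11 from 100775924 to 100830366 on the minus strand, and its end shares 72 bases with the end of Stat5a on the other strand. Cish lies on chromosome 9 from 107173225 to 107179983 on the plus strand, over the minus-strand genes Gm17040, with at most 14 counts in a library, and Gm17041, with 0. Stat6 overlaps Nab2 and Stat4 overlaps Gm28177. The submitters' notes name GRCm38, but these positions differ from that build by 109174 bases or more for 8 of the genes and by 39201 bases for Stat4. The starts of Stat5a, Stat5b and Socs3, all on chromosome 11, were shifted by the same 109174 bases. The positions are thus not those of GRCm38, and no other build was compared. The strand setting of the counting is not given in the sources used here, so reads from such overlaps cannot be assigned with certainty.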

How the data were processed

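Poly-A RNA of perigonadal adipocytes (3 control and 4 Adipoq-F2-KO libraries) was sequenced in read pairs with a stranded kit. The authors used Trimmomatic for trimming, STAR for alignment and featureCounts for counting, and deposited raw counts for 57010 genes with exon lengths, where 52029 IDs matched a symbol. Between 85.5% and 88.8% of counts from 1 to 49 were even, so both mates of a pair were apparently counted. edgeR 4.0.16 in R 4.3.3 (filterByExpr, TMM, quasi-likelihood F test, two-sided, genotype alone) was fitted on 17039 genes with Benjamini-Hochberg adjustment over all of them. DESeq2 1.42.0 and limma voom 3.58.1 were alternatives, beside other scalings and filters and each library left out. RPKM and CPM used TMM-scaled totals. SE was the absolute log2 fold change over the square root of F. Likeness used a pseudocount of 0.5 CPM and a mean of at least 1 CPM. Same-group libraries differed by more than sampling noise, with chi-square per degree of freedom from 39.7 to 163, so none was merged.

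The 9 genes and all lists were chosen with earlier results of these data known. The rule for named genes took the 9 members, Ffar2, the called genes of each list (by p, at most 4 higher and 4 lower) with its most abundant gene per length, and the 3 genes most like each of the 2 members with the smallest p. Ccl2, Lcn2, Hif1a and Bcl3 fall under it. The further called genes Icam1 and Saa3 were named after their values were seen. So were Jak2, Jak3, Tyk2, Il6st, Il6ra, Clcf1, Pim1, Il4ra, Mrc1, Irf8, Irf9, Ptpn2, Il15ra and Csf2rb2. Csf2rb, Il2rg, Il7r, Pdk4, Bcl2l1, Junb, Cebpd, Fos, Vegfa and Lbp were likewise named after their values were seen. The lists of neutrophil, T and NK cell, B cell, fibroblast progenitor, mesothelial, erythroid, epididymal and germ cell, and dissociation markers had 0 genes called by edgeR, and the adipocyte and endothelial lists also had 0. In these lists DESeq2 called higher 4 endothelial, 2 epididymal and germ cell, 1 fibroblast progenitor and 1 T and NK cell marker, and 1 adipocyte marker lower. The epididymal and germ cell sum was 0 to 4.46 CPM in the controls. It was 2.11, 110, 26.8 and 4.24 CPM in Adipoq-F2-KO libraries 1 to 4. In simulated counts for this comparison over 17039 genes with 200 changed by a log2 fold change of 1, edgeR recovered 59.3% with 3.27% false calls, DESeq2 62.3% with 15.3%, and limma voom 58% with 3.62%.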

Additional observations from a re-analysis of the deposited data

Results flagged for a closer look

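In the search for a library that stood apart, 67 sets of the 4 Adipoq-F2-KO values were examined by Dixon's criterion and 3 passed it. Chance flags about 1 in 20 such sets, which is close to this number. For Stat4, library 2 had 52 counts beside 4, 4 and 0, and its gap to the next library was 0.93 of the range. For Ptpn2, the lowest library, number 1, was at 24.6 CPM beside 31.9, 33.4 and 32.4, a gap of 0.837 of the range. For Csf2rb2, library 4 was at 46.1 CPM beside 26.9, 27.0 and 26.4, a gap of 0.967 of the range.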

How the results depend on the processing

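The direction of each tested gene and its side of the adjusted p of 0.05 were kept in 101 of 112 alternative values, 7 passed the threshold and 4 turned sign. With 1 library left out, the log2 fold change of Socs3 ran from -0.056 to 0.285, the lowest when control library 1 was out, and was -0.02 when Adipoq-F2-KO library 3 was out. That of Stat5b ran from -0.054 to 0.00300, with 0.00138 when control library 2 and 0.00300 when Adipoq-F2-KO library 2 was out. Against 173 genes and 0 of the 9 members called by edgeR, DESeq2 called 992 genes and 2 members, edgeR on all genes with any count called 1403 and 2, and DESeq2 on every gene with its own filter, an alternative chosen after seeing the data, 890 and 2. The members were Stat3 and Cish each time. DESeq2 was run first on every gene, and the run on the filtered genes was set as the main DESeq2 comparison after that result was seen. In the simulation DESeq2 made more false calls than edgeR. Its counts were drawn with the trended spread that edgeR fitted, without a spread of its own for each gene. Its changes had a log2 fold change of 1, larger than those of Stat3 and Cish. The simulation therefore cannot decide between the tools for these genes. Leaving out 1 library gave 1 to 178 genes and 0 to 0 members. The count was 1, 41 and 5 with control library 1, 2 or 3 out, and 178, 11, 20 and 166 with Adipoq-F2-KO library 1, 2, 3 or 4 out. The causes were not tested. Counts of the 2 gene lists with calls under each setting were added after seeing the data. With the replicate block, which drops Adipoq-F2-KO library 4, 223 genes and 1 member were called (Cish, adjusted p = 0.0283). The deviations of same-numbered libraries from their group means correlated at 0.037, 0.023 and -0.055, and those of other pairs at -0.087 to 0.061. These values gave no sign that the numbers pair the samples. With 3 libraries of each group compared, they cannot exclude it. The STAT sum kept its direction under both other scalings, the block and each left-out library, and both ratios under the block and each left-out library, since a scaling cannot change a ratio within a library. But 3 against 3 cannot go below an exact p of 0.1, and 2 against 4 not below 0.0667.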
